A study of Mus musculus with 24 samples.

Results

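The genes described here encode the proteins of the cytosolic ribosome. They were taken by symbol from the RNA-seq table, with a mean of at least 1 CPM (counts-per-million) over the 12 RNA libraries. The symbols were Rpl or Rps, a number and at most an ending of a, x, l or l1. The stalk genes Rplp0 to Rplp2 and Rpsa also matched. Of 86 matching symbols among 55401 genes, 80 were kept, 32 of the small subunit and 48 of the large subunit. Rps4l was just inside the limit at a mean of 2.69 CPM and Rpl39l just outside at 0.803 CPM; Rpl3l and Rpl6l were below 0.03 CPM, and Rpl10l, Rpl32l and Rps12l1 had no counts. All 80 genes passed the filter on low counts that preceded testing.

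The cells were mouse CD8 T cells of the C57BL/6J strain, purified from spleen and lymph nodes, activated in culture in the presence of anti-CD28 and IL-2, and cultured for 3 days. From day 2 to day 3 they received 20 mM sodium chloride (the NaCl group), 20 mM sodium pyruvate, 20 mM sodium lactate, or sodium lactate together with Oxyrase, an enzyme preparation used to remove oxygen from culture medium. No group received Oxyrase without lactate. The group with lactate and Oxyrase (the Oxyrase libraries) was compared with NaCl, from which it differs by both agents, and with lactate, from which it differs by Oxyrase. RNA-seq of poly(A) RNA and ATAC-seq, which counts transposase insertions in accessible DNA, each gave 3 libraries per group. The labels do not say whether replicates came from separate animals or cultures, so p-values measure the spread between these libraries, which may be technical.

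As background, a ribosome holds its proteins in fixed proportions on ribosomal RNA, and a growing T cell makes them in large amounts. The transcripts of these genes typically begin with a C followed by a run of pyrimidines, the 5′ terminal oligopyrimidine (TOP) tract, through which the kinase mTOR and the protein Larp1 control their translation. Such control acts on ribosome loading and need not change the amount of a transcript, which is what RNA-seq counts. A few members have paralogs, encoded elsewhere in the genome, that can take the place of the main copy in the ribosome or act outside it.

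The start of the transcript is the shared sequence feature of the family, and it is shown first for members whose transcripts or promoters stand out in the sections that follow. RefSeq windows on GRCm38.p6 were available for 59 of the 80 members. Runs of C and T were counted from a C within 5 bases of the annotated start, whatever base preceded that C. A run with at least 4 further pyrimidines was found in 29 of the 59 members (49.2%), against 21.2% of 27025 genes with a window. The 30-base windows below run 5′ to 3′ from 10 bases before the annotated start to 20 bases from it on. Capitals mark the counted run, which further pyrimidines can precede, as in Rpl28, Rpl35 and Rpl22l1. The first 5 hold a run, and Rpl41 and Rplp0 are shown because theirs hold none.
Rps18 (chr17:33955646-33955675, minus strand): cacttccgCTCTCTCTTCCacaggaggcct
Rpl13a (chr7:45128726-45128755, minus strand): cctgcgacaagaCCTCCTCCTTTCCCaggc
Rpl28 (chr7:4792955-4792984, plus strand): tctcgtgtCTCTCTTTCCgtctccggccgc
Rpl35 (chr2:39005112-39005141, minus strand): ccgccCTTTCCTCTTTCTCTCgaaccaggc
Rpl22l1 (chr3:28805498-28805527, plus strand): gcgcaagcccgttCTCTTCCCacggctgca
Rpl41 (chr10:128549149-128549178, minus strand): gggccggctcggaagtgacgacaccgagca
Rplp0 (chr5:115559457-115559486, plus strand): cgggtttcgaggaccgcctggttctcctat
The longest counted run among these 7 was that of Rpl35, with 16 pyrimidines. Further C directly precede it, beyond the 5 bases searched. A window without a run says only that the letters are absent at the annotated position, since the start that a cell uses can lie a few bases away.

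Depth, in mega (M) counts, was 26.04 to 39.64 M per RNA library and 25.31 to 37.07 M per ATAC library, the latter in 75802 peaks. The summed level of 7 CD8 T cell marker genes was 1985 to 2143 CPM in the NaCl and lactate libraries, 1891 to 1947 CPM with pyruvate and 1456 to 1553 CPM with lactate and Oxyrase. Of 5 B cell markers 3 were below 1 CPM in mean, and the list's sum, nearly all of it from Ighm, was 205 to 213 CPM in NaCl, 147 to 154 CPM with pyruvate, 189 to 199 CPM with lactate and 64.9 to 76.5 CPM with lactate and Oxyrase. The sum of 3 CD4 T cell markers was 6.07 to 6.74 CPM in NaCl, 4.77 to 5.75 CPM with pyruvate or lactate and 1.41 to 1.95 CPM with lactate and Oxyrase, and Foxp3 fell against NaCl with lactate and Oxyrase and with pyruvate. Of 3 natural killer cell markers 2 were below 1 CPM in mean, and the sum was 0.945 to 1.44 CPM in NaCl and lactate and 1.61 to 2.22 CPM in the other groups, where Klre1 rose against NaCl. All 6 myeloid and all 4 erythroid markers were below 1 CPM. The part of these shifts in the results that follow was not tested, and in bulk samples fewer cells of a type and less RNA per cell cannot be told apart. In RNA the library pyruvate 2 stood apart from the other pyruvate libraries, with the members' median 0.163 below its 12-library mean on the log2 scale, against 0.01 and 0.06 below in the other two.

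Ribosomal protein transcripts made up a steady share of each library. In the NaCl libraries the members held 6.16%, 6.14% and 5.94% of all counts, in the pyruvate libraries 6.11%, 5.57% and 5.93%, in the lactate libraries 6.23%, 6.15% and 6.21%, and with lactate and Oxyrase 6.00%, 6.16% and 6.37%. The group means were 6.08% ± 0.121, 5.87% ± 0.277, 6.20% ± 0.0435 and 6.18% ± 0.184 (SD, n = 3). All groups overlapped except pyruvate and lactate, where every pyruvate library was below every lactate library. That pair gave p = 0.1 in a two-sided exact permutation test, the smallest that 3 against 3 allows, and p was 0.2 to 0.9 in the other 4 comparisons.

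**Figure D1:**
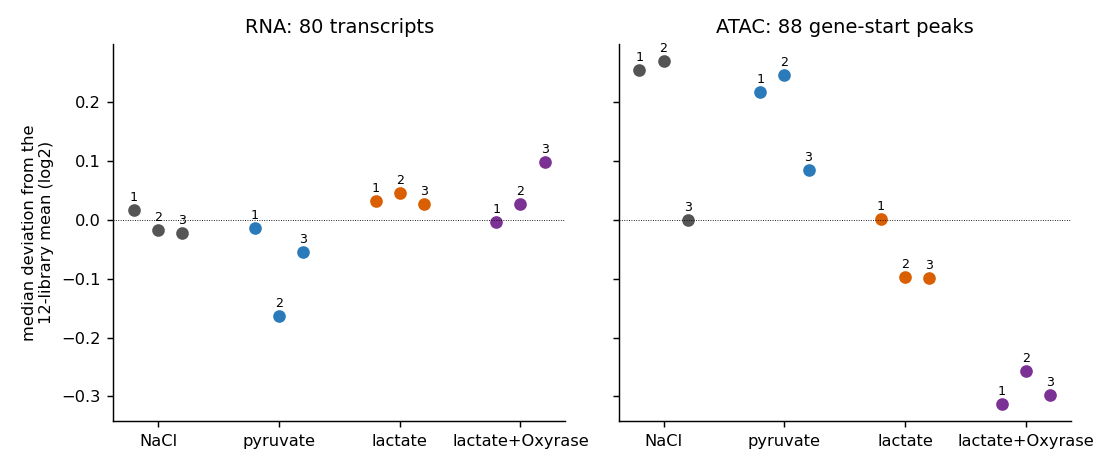
Median deviation of the members from each gene's or peak's mean over the 12 libraries, on the log2 scale, for the 80 transcripts in RNA (left) and the 88 peaks at their gene starts in ATAC (right). Each point is 1 library, numbered by replicate. Transcript medians lie between -0.163 and 0.10, whereas the peak medians of the lactate with Oxyrase libraries lie at -0.257 to -0.312, below those of the other 9 libraries.

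Lactate with Oxyrase moved individual ribosomal protein transcripts in both directions around an almost unmoved centre. Against NaCl, 32 members rose and 12 fell in edgeR's quasi-likelihood test at an adjusted p under 0.05 (Benjamini-Hochberg over 14749 tested genes). Of all tested genes 26.5% were called higher and 24.3% lower. The members' median log2 fold change was 0.03 against 0.00 for all genes, and their median absolute change was 0.12 against 0.25. Only 7 members moved by more than 0.3 on the log2 scale. Of these, Rps4l, Rpl22l1 and Rps23 rose, and Rps27l, Rpl41, Rpl37a and Rpl7l1 fell. Against lactate alone 18 members rose and 10 fell, with 26.1% of all genes called higher and 23.6% lower. Scaling by library totals alone gave 14 and 13. The number that fell against NaCl was 6 or 7 when NaCl 1, NaCl 2, lactate+Oxyrase 1 or lactate+Oxyrase 2 was left out. It was 18 against lactate without lactate+Oxyrase 3.

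**Figure D2:**
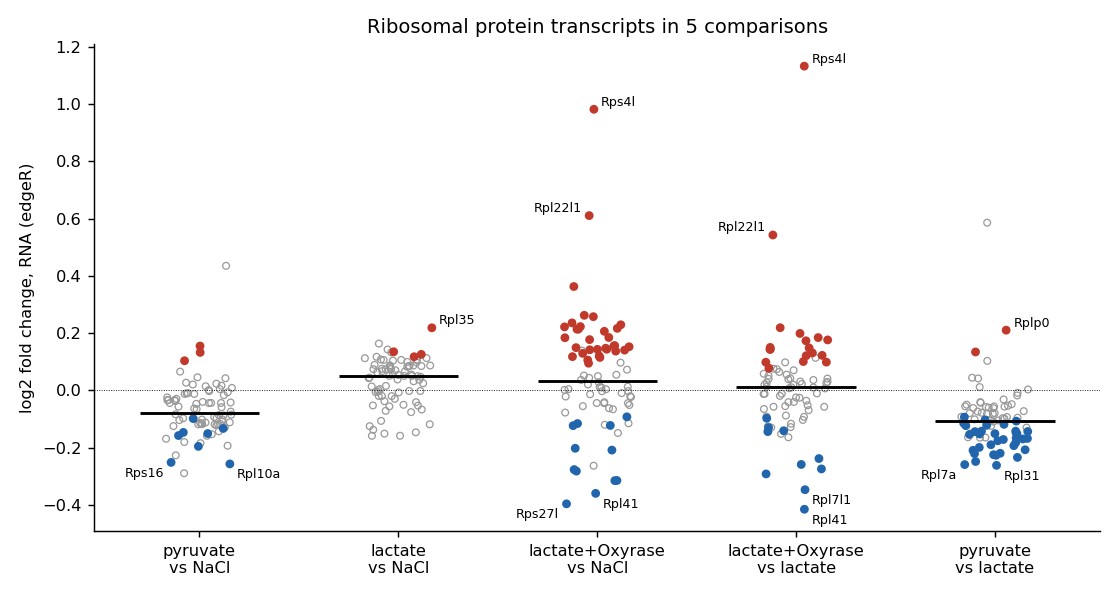
Log2 fold change of the 80 ribosomal protein transcripts in each of the 5 comparisons (edgeR). Filled points passed an adjusted p of 0.05, red higher and blue lower, open points did not, and the bar is the median of the 80 members. In the 2 comparisons with Oxyrase, Rps4l and Rpl22l1 lie above all other members, while the pyruvate against lactate points lie mostly below 0 (72 of 80).

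The paralogs were among the members that moved most. Rpl22l1 encodes a paralog of Rpl22, a large subunit protein with roles in T cell development. It measured 103, 113 and 92.4 CPM in NaCl, 115, 96.7 and 102 CPM with pyruvate, 111, 105 and 105 CPM with lactate, and 147, 145 and 168 CPM with lactate and Oxyrase. Every Oxyrase library was above the other 9. The log2 fold change was 0.61 against NaCl (SE 0.0678, adjusted p = 9e-07) and 0.54 against lactate (SE 0.0674, adjusted p = 3.4e-06) by edgeR. Rpl22 itself measured 286, 303 and 313 CPM with lactate and Oxyrase, within the NaCl range of 285 to 316 CPM. Its log2 fold change against NaCl was 0.04, with a 95% interval of -0.07 to 0.16.

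Rps27l, a paralog of Rps27 known as a p53 target, went the other way. Its libraries measured 126, 125 and 106 CPM in NaCl and 72.7, 89.9 and 102 CPM with lactate and Oxyrase, with 96.8 to 122.8 CPM with pyruvate and 103 to 108 CPM with lactate. The groups did not overlap against NaCl (log2 fold change -0.40, SE 0.0944, adjusted p = 0.00202, edgeR), but they almost met. Against lactate alone the groups were separate in CPM and overlapped after scaling by the trimmed mean of M-values (TMM). The change there was -0.24 (adjusted p = 0.0456), a call that was lost in some alternative fits. Rps27, the main copy, rose by 0.18 against lactate (adjusted p = 0.0156) and measured 0.14 higher against NaCl with an adjusted p of 0.0502.

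Rpl7l1, a relative of Rpl7 that acts in assembly of the large subunit, measured 198, 199 and 185 CPM in NaCl and 200, 193 and 195 CPM with lactate. In the Oxyrase group it measured 151, 148 and 158 CPM, below all 9 other libraries. It fell by 0.31 against NaCl and by 0.35 against lactate (SE 0.0364 and 0.0363, adjusted p 1.51e-06 and 4.65e-07 in edgeR). Rpl7 measured 1409 to 1467 CPM with Oxyrase and 1460 to 1487 CPM in NaCl, a log2 difference of 0.01 (95% interval -0.06 to 0.08).

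Rps4l, an autosomal gene resembling Rps4x, had the largest log2 fold changes of the family but few counts. It measured 2.07, 2.49 and 1.65 CPM in NaCl, 2.43, 1.42 and 1.79 CPM with lactate, and 4.68, 2.90 and 4.45 CPM with lactate and Oxyrase. Its change was 0.98 against NaCl (SE 0.22, adjusted p = 0.00122) and 1.13 against lactate (SE 0.22, adjusted p = 0.000366) in edgeR. One pyruvate library, at 3.204 CPM, exceeded the lowest Oxyrase library. Rps4x stayed at 1385 to 1506 CPM with Oxyrase against 1442 to 1511 CPM in NaCl.

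**Figure D3:**
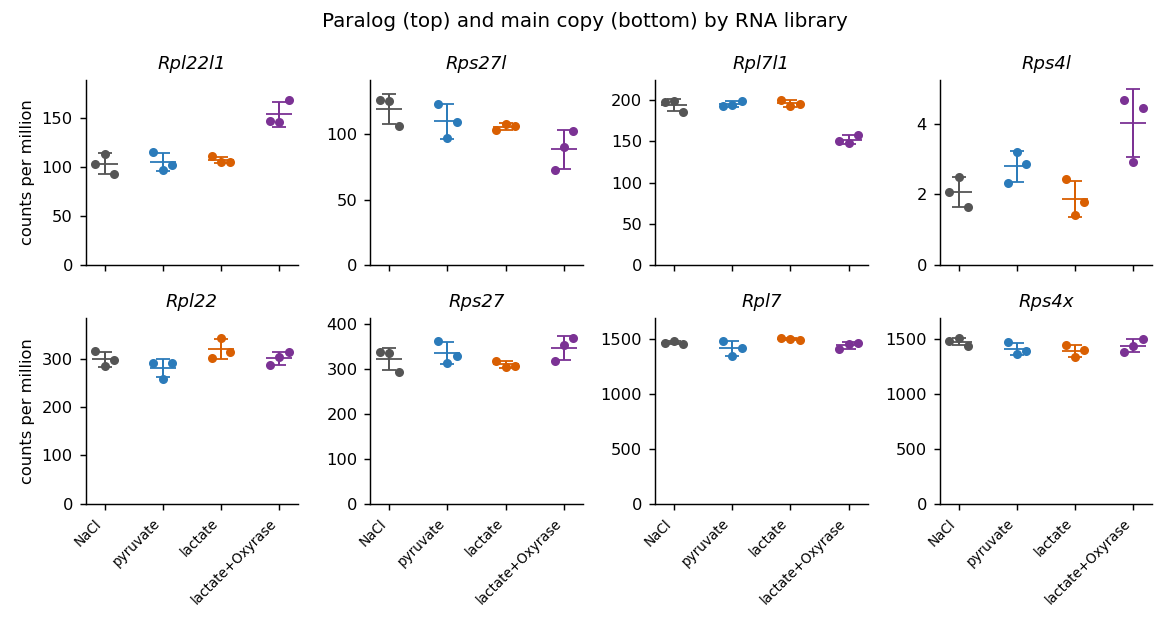
CPM of 4 paralogs (top row) and of their main copies (bottom row) in the 12 RNA libraries. Points are libraries, and the cross-bar and whiskers give the mean and SD of 3. With lactate and Oxyrase the points of Rpl22l1 lie above and those of Rpl7l1 below every other library, whereas Rpl22, Rpl7 and Rps4x overlap the NaCl libraries.

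Among core subunits Rps23 and Rpl13a rose most with lactate and Oxyrase. Rps23 encodes a protein of the decoding centre. It measured 431, 417 and 456 CPM in NaCl, 461, 511 and 471 CPM with lactate, and 556, 538 and 541 CPM with lactate and Oxyrase. The changes were 0.36 against NaCl and 0.20 against lactate (adjusted p = 1.01e-05 and 0.00292, edgeR), with all 3 Oxyrase libraries highest. Genes named as Rps23 pseudogenes held 53.7% of the summed counts of Rps23 and its copies, so reads may have been split between them. With the copies added the change was 0.33 against NaCl and 0.15 against lactate (adjusted p = 3.22e-06 and 0.00732, edgeR). Rpl13a, known also for regulating translation outside the ribosome, measured 1309, 1324 and 1247 CPM in NaCl and 1481, 1506 and 1553 CPM with Oxyrase, a rise of 0.26 (adjusted p = 8.49e-06, edgeR). Rpl28 rose by 0.26 to 688, 683 and 674 CPM, from 577, 584 and 592 CPM in NaCl. Its named pseudogenes held 18.0% of the summed counts, and with them added the rise was 0.21 (adjusted p = 0.000128, edgeR).

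Among core subunits Rpl41 and Rpl37a, both of the large subunit, fell most with lactate and Oxyrase against NaCl. Rpl41 measured 943, 950 and 829 CPM in NaCl, 935, 919 and 942 CPM with lactate, and 640, 692 and 738 CPM with lactate and Oxyrase. All Oxyrase libraries were below the other 9, and the gene fell by 0.36 against NaCl and 0.41 against lactate (adjusted p = 2.73e-05 and 5.82e-06, edgeR). Rpl37a measured 423, 432 and 380 CPM in NaCl and 294, 325 and 349 CPM with Oxyrase, a fall of 0.31 (adjusted p = 0.000157, edgeR). Rps29 varied widely within a group, at 440, 427 and 319 CPM in NaCl. With Oxyrase it measured 272, 315 and 365 CPM, so the groups overlapped although the change of -0.28 passed the test (adjusted p = 0.028). That call was lost in some leave-one-out fits. Against lactate alone Rps28 fell by 0.29 and Rps26 by 0.26.

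The members were also read by their place in the ribosome. Against NaCl, 26.5% of all genes were called higher and 24.3% lower with lactate and Oxyrase, and of the members themselves 32 of 80 and 12 of 80. Both proteins that carry 5S ribosomal RNA into the large subunit, and that bind Mdm2 when assembly fails, rose against NaCl with lactate and Oxyrase. Rpl5 rose by 0.24 and Rpl11 by 0.15 (adjusted p = 0.000532 and 0.00404, edgeR). Of 9 proteins around the exit of the peptide tunnel 4 rose and 0 fell (edgeR; 1 lower at an unadjusted p under 0.05, 0 by DESeq2), led by Rpl35 at 0.23 and Rpl17 at 0.21. Among the 4 stalk proteins, which recruit elongation factors, Rpl12 fell by 0.12 and the other 3 were not called. Of the 3 proteins at the messenger entry site Rps9 fell by 0.09, and Rps2 and Rps3 were not called.

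Pyruvate, compared with lactate at the same dose and time, gave lower ribosomal protein transcripts by a small amount. Of the 80 members 35 were lower with pyruvate and 2 higher, against 10.9% and 13.0% of all genes, and 72 of 80 log2 fold changes were below 0. The members' median was -0.11 and that of all genes 0.00. This count leaned on single libraries. It came to 14 lower when pyruvate 2 was dropped, and to 19 or 23 when lactate 2 or lactate 3 was dropped. Without pyruvate 2 the median was the nearest to 0, at -0.07.

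The large subunit carried most of these calls, with 25 of 48 members lower against 10 of 32 in the small subunit. The difference between subunits was not tested. Rpl31, a tunnel exit protein, measured 362, 330 and 369 CPM with pyruvate and 428, 423 and 412 CPM with lactate. It was lower by 0.26 with pyruvate (adjusted p = 0.00054, edgeR), and its named pseudogenes held 33.4% of the summed counts. Rpl7a measured 1159, 1129 and 1195 CPM against 1371, 1402 and 1368 CPM, a log2 difference of -0.26 (adjusted p = 6.97e-05). In both genes the groups were separate. In all, 7 of the 9 tunnel exit genes were lower with pyruvate, and so were both 5S carriers, Rpl5 by 0.15 and Rpl11 by 0.14.

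Rplp0, the base of the stalk, was an exception. It measured 2976, 2791 and 2906 CPM with pyruvate, 2519, 2412 and 2519 CPM with lactate and 2646, 2631 and 2552 CPM in NaCl. Every pyruvate library was above the other 9, including pyruvate 2, in which most members were low. It was 0.21 higher than with lactate and 0.16 higher than in NaCl (adjusted p = 0.000178 and 0.00377, edgeR). Rpl10 was the other member called higher in both comparisons, by 0.13 each. Its pseudogenes held 44.1% of the summed counts, and with them added it was not called in either (adjusted p = 0.68 against lactate and 0.819 against NaCl, edgeR).

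Against NaCl, pyruvate lowered 8 members and raised 3, where 6.28% and 9.40% of all genes were called lower and higher. Rps20 measured 0.29 lower but was not called (adjusted p = 0.0665, edgeR). Among the members called, Rpl10a and Rps16 showed the largest falls, of 0.26 and 0.25. Rpl10a measured 392.1, 401 and 363 CPM in NaCl and 340, 289 and 335 CPM with pyruvate, so the groups did not overlap. Both genes have many counts in named pseudogenes (43.1% and 38.0%), and with these added only Rps16 passed the test (adjusted p = 0.0367 against 0.0744 for Rpl10a). Rpl29 fell by 0.19. Without pyruvate 2 only 2 members were lower, without NaCl 1 3 and without pyruvate 1 14. The number higher was 1 without NaCl 1, NaCl 2, pyruvate 1 or lactate 3.

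Lactate alone left the transcripts close to NaCl. In edgeR 4 members rose, Rpl35, Rpl28, Rpl7a and Rps6, where 3.61% of all genes were called higher. In edgeR and in DESeq2 0 fell, with 1 lower at an unadjusted p under 0.05 in edgeR, where 4.12% of all genes were called lower. Rpl35 measured 560, 655 and 592 CPM with lactate and 540, 491 and 540 CPM in NaCl, a rise of 0.22 (adjusted p = 0.0262). Rps6, the substrate of the S6 kinases, rose by 0.12. None of the 4 kept its call throughout: leaving out NaCl 1, NaCl 2 or lactate 2 gave no called member, leaving out lactate 3, lactate+Oxyrase 2, lactate+Oxyrase 3 or pyruvate 3 gave 2, and leaving out NaCl 3 gave 7. DESeq2 called 12 members higher.

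The symbol rule left out some genes that encode ribosomal proteins or close copies of them, among them Rps3a1, Fau, Rack1 and Rpl36al. With pyruvate against lactate Rps3a1 and Rpl36al were lower, by 0.20 and 0.16 on the log2 scale, and Fau and Rack1 were not called. Of these 4 genes, Rpl36al rose with lactate and Oxyrase against NaCl, by 0.11 (adjusted p = 0.0422, edgeR), and the other 3 were not called.

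Other genes whose transcripts carry TOP tracts, mostly translation factors, were followed as a list of 19. With pyruvate against lactate, where 10.9% of all genes were lower and 13.0% higher, 12 were lower and 0 higher (edgeR; 1 higher at an unadjusted p under 0.05, 0 by DESeq2), with a median of -0.11, beside the members' -0.11. Against NaCl, 7 rose with lactate and Oxyrase and 2 fell (26.5% and 24.3% of all genes). Eef1a1, the elongation factor that brings aminoacyl-tRNA to the ribosome, rose by 0.57, from 8472, 8090 and 8599 CPM in NaCl to 12480, 12025 and 12054 CPM. Eif4b, which helps to unwind messages for initiation, went from 981, 965 and 1008 CPM to 842, 846 and 824 CPM, a fall of 0.20. With lactate alone 5 of the 19 rose against NaCl (3.61% of all genes), led by Npm1 at 0.21 and Hnrnpa1 at 0.19.

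Genes that host small nucleolar RNAs, whose spliced transcripts also begin with TOP tracts, were a list of 8. Against NaCl, 6 rose and 1 fell with lactate and Oxyrase, with a median of 0.45, beside 26.5% and 24.3% of all genes. The counts against lactate were also 6 and 1, beside 26.1% and 23.6%. Snhg12 measured 55.1, 53.6 and 49.3 CPM in NaCl and 99.3, 92.6 and 92.0 CPM with lactate and Oxyrase (0.88). Gas5, which accumulates when translation is held back, went from 399, 392.1 and 383 CPM to 559, 528 and 529 CPM (0.50). Snhg6 fell by 0.43. With pyruvate 3 of the 8 were lower than in NaCl (6.28% of all genes) and 0 higher (edgeR; also 0 at an unadjusted p under 0.05 and by DESeq2).

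Regulators of ribosomal protein messages changed in both directions with lactate and Oxyrase, 6 of 14 higher and 5 lower against NaCl, where 26.5% and 24.3% of all genes were called. Sesn2, a stress-induced inhibitor of mTOR signalling, measured 47.7, 41.9 and 45.4 CPM in NaCl and 119, 88.9 and 110 CPM with Oxyrase, a rise of 1.27. Ddit4, another inhibitor of mTOR, rose by 0.67, and Eif4ebp1, a repressor of the cap-binding protein Eif4e that mTOR switches off, by 0.82. Its relative Eif4ebp2 fell by 0.46, and Tsc1 and Tsc2, which restrain mTOR, fell by 0.35 and 0.14. The kinase Mtor itself rose by 0.16, Larp1 by 0.17 and Eif4e by 0.14, and Rptor, the mTOR partner that binds its substrates, fell by 0.40. Myc, a driver of ribosomal gene transcription, measured 502, 483 and 524 CPM in NaCl and 346, 331 and 324 CPM with Oxyrase, a fall of 0.56. With lactate alone against NaCl edgeR called 0 of the 14. At an unadjusted p under 0.05 it had 4 higher and 1 lower, and DESeq2 called 2 higher. Of 8 dedicated chaperones of ribosomal proteins, Pdcd2, Pdcd2l and Heatr3 rose and Grwd1 fell with lactate and Oxyrase against NaCl, again beside 26.5% and 24.3% of all genes.

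With lactate and Oxyrase against NaCl the members' gene starts moved mostly down in chromatin, whereas their transcripts moved in both directions. ATAC peaks within 1 kb of a start numbered 88 at 78 members, of which 77 covered the start. No peak lay at Rpl17 or Rps4l. For 21 members without a strand in the reference tables either annotated end counted as a start, and 38 of the 88 peaks also lay within 1 kb of the start of another gene. With lactate and Oxyrase 65 peaks were lower than in NaCl and 2 higher. Of 17647 peaks at the annotated starts of all genes, expressed or not, 42.6% were lower and 8.84% higher. Lower accessibility at gene starts was therefore common. The median log2 fold change was -0.48 at members, -0.19 at all gene starts and 0.03 over all peaks.

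The largest fall was at Rps28, at chr17:33824287-33824887 (mm10 coordinates as deposited). In TMM-scaled CPM its peak measured 23.9, 23.6 and 17.4 CPM in NaCl, 21.6, 22.9 and 18.4 CPM with pyruvate, 14.7, 15.4 and 12.2 CPM with lactate, and 10.0, 10.1 and 9.28 CPM with lactate and Oxyrase. The 3 Oxyrase libraries were lowest, the 3 lactate libraries came next, and NaCl and pyruvate overlapped above them. The change was -1.13 against NaCl (SE 0.112, adjusted p = 7.49e-11, edgeR). At Rps18 (chr17:33955424-33956226) the values were 42.3, 44.4 and 29.9 CPM in NaCl, 27.3, 24.2 and 23.1 CPM with lactate and 18.1, 20.1 and 19.7 CPM with lactate and Oxyrase, in the same order. Its change with Oxyrase was -1.01. The starts of Rpl3 and Rpl8 fell by 1.02 and 1.01.

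Of the peaks that rose, one lay beside Rpl36 (0.33) without covering its start, while the peak that covers a start of this gene fell by 0.49. The highest change of any member peak with lactate and Oxyrase against NaCl was 0.43. The peak at Rpl22l1 measured 55.0, 53.5 and 46.2 CPM in NaCl and 45.6, 57.9 and 48.4 CPM with Oxyrase, a log2 difference of -0.03 (SE 0.0988). Of the members whose transcripts fell, Rpl37a had a peak change of -0.08 that was not called, and Rps27l one of -0.56 that was.

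Lactate alone lowered 33 of the 88 peaks against NaCl and raised 0, where 15.8% and 0.465% of gene-start peaks were called. Without adjustment edgeR had 3 higher at p under 0.05, whereas DESeq2 called 0 higher. The median was -0.24 at members and -0.09 at all gene starts. Rps18 (-0.64), Rps28 (-0.62) and Rps2 (-0.57) led. The count depended on single libraries. In the plot of library medians NaCl 3 lay with lactate 1 rather than with the other NaCl libraries. It came to 53 when NaCl 3 was dropped, 9 for NaCl 1 and 8 for NaCl 2, and to 21 or 11 when lactate 2 or lactate 3 was dropped. Adding Oxyrase to lactate lowered 42 peaks and raised 0 (edgeR; also 0 higher at an unadjusted p under 0.05 and by DESeq2), where 21.0% and 5.17% of gene-start peaks were called, with a median of -0.24 and the largest fall of a peak covering a start at Rpl8 (-0.64).

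Pyruvate left these peaks close to NaCl. No member peak was called by edgeR or by DESeq2, none had an unadjusted p under 0.05, and the lowest adjusted p was 0.972; of all 75802 peaks 1707 higher and 2353 lower had an unadjusted p under 0.05 and 0.0% were called in either direction. The member log2 fold changes ran from -0.20 to 0.16. Compared with lactate, pyruvate had 38 member peaks higher and 1 lower, with 18.8% and 2.13% of gene-start peaks called. The number higher was 19 without lactate 3 and 22 without pyruvate 2.

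The scaling set part of these sizes. With TMM factors taken from gene-start peaks alone, the median of all peaks moved up by 0.22 against NaCl in the Oxyrase comparison, from 0.03 to 0.25, and the gene-start median went from -0.19 to 0.03. The members' median was then -0.25, with 50 peaks lower and 5 higher, where 24.2% of gene-start peaks were lower and 24.9% higher. For lactate against NaCl the same scaling gave 21 lower and 3 higher and a median of -0.12.

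Member peaks were more accessible than most, with a median of 33.8 CPM against 21.8 CPM at all gene starts. They were therefore set beside other gene-start peaks in the same of 4 equal bins of mean accessibility, where bin 4 is the highest. With lactate and Oxyrase against NaCl, the 48 member peaks in bin 3 had a median of -0.56 and the other gene starts -0.31. In bin 4 the medians were -0.29 for 26 member peaks and -0.30 for the others. In bin 2, 11 member peaks had -0.65 against -0.12. The distance between members and other gene starts thus lay below bin 4. Lactate alone gave -0.26 against -0.16 in bin 3 and -0.20 against -0.17 in bin 4.

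**Figure D4:**
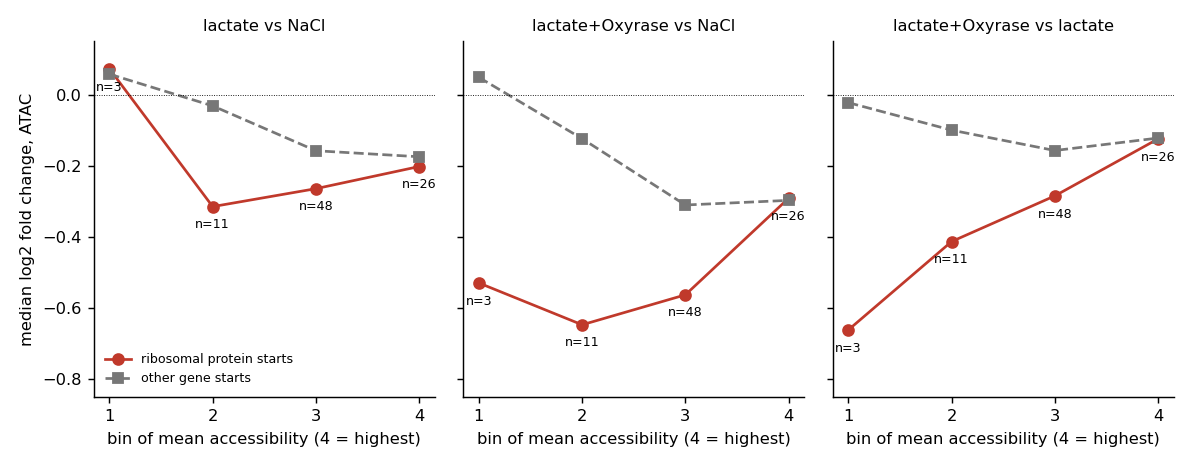
Median log2 fold change in ATAC of peaks at ribosomal protein gene starts (circles, with their number) and at other gene starts (squares), by bin (1 to 4, low to high) of mean accessibility among gene-start peaks, for 3 comparisons. In bin 4 both medians nearly coincide with lactate and Oxyrase against NaCl (-0.29 and -0.30), and in bin 3 the members lie lower (-0.56 and -0.31). Bin 1 holds only 3 member peaks.

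The promoters of Rps18, Rps28 and Rpl22l1 are shown next, chosen after their peak changes were seen. Below are the 100 bases before the annotated start, 5′ to 3′, with capitals for matches on either strand to the ETS core GGAAGT, the SP and KLF motif GGGCGG, the YY1 motif AAGATGGC or the TATA motif TATAAA. Rps18 and Rps28 are among the 4 members, with Rpl3 and Rpl8, whose peaks fell by more than 1 on the log2 scale, and Rpl22l1 is a paralog whose peak was not called.
Rps18 (chr17:33955666-33955765, minus strand): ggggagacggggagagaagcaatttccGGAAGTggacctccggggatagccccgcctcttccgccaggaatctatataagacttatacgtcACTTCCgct
Rps28 (chr17:33824563-33824662, minus strand): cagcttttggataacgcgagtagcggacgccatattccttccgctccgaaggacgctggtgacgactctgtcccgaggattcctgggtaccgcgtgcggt
Rpl22l1 (chr3:28805408-28805507, plus strand): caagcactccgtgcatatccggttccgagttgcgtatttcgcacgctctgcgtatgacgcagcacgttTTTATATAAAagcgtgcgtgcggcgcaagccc
Rps18 has a pair of ETS matches, Rps28 has no match to the 4 motifs in these bases, and Rpl22l1 has overlapping TATA matches on both strands. Over the 250 bases before the start, GGAAGT was in 24 of 59 member windows (40.7%) and in 22.2% of all genes, and the longer form CCGGAAGT, which contains it, in 8 (13.6%) and 3.23%. GGGCGG was in 31 (52.5%) and 35.4%, and TATAAA in 4 (6.78%) and 14.3%. AAGATGGC, searched over the whole window including 50 bases after the start, was in 6 (10.2%) and 3.19%. With lactate and Oxyrase against NaCl, the nearest peak had a median change of -0.37 in the 24 members with GGAAGT and -0.54 in the 35 without. The medians with and without were -0.46 and -0.63 for GGGCGG, and -0.39 and -0.56 for AAGATGGC. For a pyrimidine run at the start they were -0.52 and -0.57, so members with each of these features had the smaller fall. Transcripts of the 29 members with a pyrimidine run at the start had a median of 0.05 and those of the 30 without 0.01. These medians are descriptions, and no test was made between them.

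Changes at the promoter and in the transcript were not ordered alike. Over 78 members, the log2 fold change of the nearest peak and of the transcript had Pearson's r = 0.06 and Spearman's rho = 0.08 with lactate and Oxyrase against NaCl, and Pearson's r was at most 0.14 in the other comparisons. These values run across genes of the same libraries and are given without a p. With TMM over all peaks, all 78 nearest peaks lay below 0 in that comparison, with 46 transcripts above 0 and 32 below. TMM from gene-start peaks moved the median of all peaks there from 0.03 to 0.25, so the sign of the smaller falls depends on scaling. Of 60 members whose nearest peak was called lower, 23 had a transcript called higher, 8 one called lower and 29 neither. Over all 80 members 32 transcripts were called higher and 12 lower, and over all genes 26.5% and 24.3%, so nothing is read from that split. Rps18, with one of the largest losses of accessibility, had a transcript change of 0.15. Rpl41, whose transcript fell, had a change of -0.20 at the peak covering its start (adjusted p = 0.0888, edgeR). A second peak within 1 kb, at chr10:128547262-128548210, fell by 0.46 (adjusted p = 7.98e-05).

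**Figure D5:**
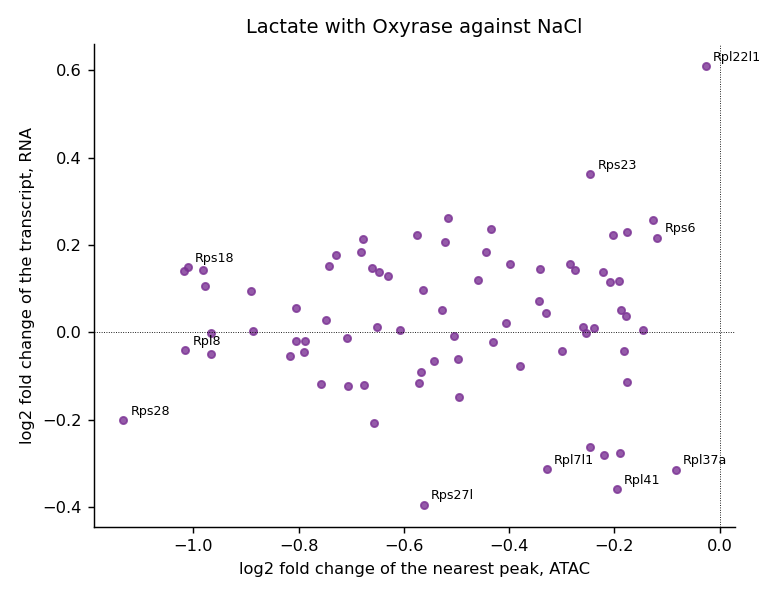
Log2 fold change of the transcript (RNA, vertical) against that of the nearest ATAC peak (horizontal) for 78 ribosomal protein genes, lactate with Oxyrase against NaCl. Each point is 1 gene. With TMM over all peaks, all points lie left of 0 on the horizontal axis, with 46 above and 32 below 0 on the vertical axis.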

How the data were processed

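Per the submitters' processing notes, the RNA-seq tools named were Trimmomatic, Bowtie2 2.2.0, RSEM 1.2.12 and edgeR 3.20.9. The values the authors deposited are expected counts per gene, under a name that calls them adjusted without saying for what. Values above 1 that were not whole occurred in 460 genes, and 448 of these were at 0 in every library of a replicate number. If the authors adjusted the counts for replicate number, the RNA p-values are too small. In the ATAC table the authors deposited counts of reads per peak on mm10, and the notes name BWA, Picard, MACS2 and bedtools. Which step each did is not given in the sources used here.

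Expected counts were rounded. One quasi-likelihood model per assay (edgeR 4.0.16, R 4.3.3) was fitted to all 12 libraries without a replicate term, after filterByExpr and TMM scaling, and p-values were adjusted by Benjamini-Hochberg over all tested features at 0.05. Replicates varied with a biological coefficient of variation of 5.05% (RNA) and 9.70% (ATAC). Gene symbols matched for 55141 of 55401 identifiers, and starts came from RefSeq on GRCm38.p6. In RNA, CPM were computed on library totals. As to counting error, the upper limit for a gene with no counts (3 counts) was at most 0.115 CPM per RNA library. The pipeline was tested on simulated counts with known changes in the pyruvate libraries. The simulated counts held no adjustment for replicate number and no shared shift at gene starts, so that test does not address either. Named genes were drawn from the 5 members with the highest and the 5 with the lowest change among those called in a comparison. The paralogs with their main copies, up to 2 genes per structural group and genes of fixed lists were included, and in ATAC 3 peaks each way. Not every gene or peak that met these rules is described. Rpl22l1, Rpl41, Rpl37a and Rps27l peaks, Rps18 transcripts and the choice of printed sequences were added after their values were seen. The ranking by level per length that the rule also held was not made, because coding lengths were not used here. The members and lists were chosen with earlier results of these data known. Alternatives changed the tool (DESeq2 1.42.0), scaling, filter, threshold, peak distance, libraries and replicate term. A loess trend and the adding of pseudogene counts were chosen after seeing the data.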

Additional observations from a re-analysis of the deposited data

How the results depend on the processing

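Here Oxyrase stands for lactate with Oxyrase. The numbers of members called changed with the threshold, the filter on low counts, the scaling and single libraries. Of 57 named values that passed the test, 39 kept their call and direction in every alternative, and in 0 did the direction turn. All 4 transcripts higher with lactate, 6 of the calls of pyruvate against NaCl, and the Rps29, Rps27 and Rps27l calls with Oxyrase were among those lost. The cause of each change below was not tested.

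DESeq2 called 12 transcripts higher with lactate and 15 lower with pyruvate against NaCl, and 0 peaks lower with pyruvate against lactate. Fitting the 2 groups alone left 1 transcript higher with pyruvate against NaCl. Without the filter on low counts, lactate against NaCl gave 8 higher and 5 lower, Oxyrase against lactate 19 lower and pyruvate against NaCl 25 lower. At an adjusted p of 0.01 the transcripts called were 1 higher and 3 lower for pyruvate and 0 higher for lactate against NaCl, 5 lower for Oxyrase against NaCl, 9 higher and 6 lower for Oxyrase against lactate, and 1 higher and 15 lower for pyruvate against lactate. At that threshold 1 peak was higher with Oxyrase against NaCl, 27 were lower with Oxyrase against lactate and 0 were lower with pyruvate against lactate. With named pseudogenes added, 1 transcript was higher with pyruvate in each of its comparisons.

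TMM from gene-start peaks gave, for lactate against NaCl, 3 higher and 21 lower (median -0.12), for Oxyrase against NaCl 5 higher (median -0.25), for Oxyrase against lactate 26 lower (median -0.13) and for pyruvate against lactate 4 lower (median 0.12). Library totals gave 1 peak higher with lactate and a median of -0.37 with Oxyrase against NaCl. The loess trend gave 1 peak higher with lactate and a median of -0.13, a median of -0.30 with Oxyrase against NaCl, 1 peak higher with Oxyrase against lactate and 3 lower with pyruvate against lactate. Within 0.25 kb of a start 0 peaks were higher with Oxyrase against NaCl and 0 lower with pyruvate against lactate. Within 2.5 kb 1 was higher with lactate, 5 with Oxyrase against NaCl and 1 with Oxyrase against lactate, and 4 were lower with pyruvate against lactate.

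Deviations of same-numbered libraries correlated at -0.21 to -0.08 in RNA and -0.15 to 0.17 in ATAC, where 6 of 18 pairs were over 0.1. An adjustment of the deposited RNA counts for replicate number would remove such a correlation, so in RNA this check cannot tell whether the numbers pair the libraries. With replicate number as a block, 1 transcript was higher with lactate and 1 with pyruvate against NaCl, and 1 peak was higher with lactate. The other counts stayed within 1.5 times, among them 27 transcripts lower with pyruvate against lactate and 72 peaks lower with Oxyrase against NaCl.

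Leaving out 1 library at a time gave these ranges in RNA: pyruvate against NaCl 1 to 2 higher and 2 to 14 lower, lactate against NaCl 0 to 7 higher, Oxyrase against NaCl 6 to 13 lower, Oxyrase against lactate 7 to 18 lower, and pyruvate against lactate 1 to 3 higher and 14 to 38 lower. In ATAC they were, for lactate against NaCl, 0 to 1 higher, 8 to 53 lower and a median of -0.35 to -0.19, for Oxyrase against NaCl 1 to 2 higher, and for pyruvate against lactate 19 to 44 higher and 0 to 2 lower. Some uncalled log2 fold changes near 0 turned their sign. Leaving out 1 library at a time, pyruvate against NaCl gave -0.0391 to 0.0943 for Rpl22l1 and -0.00742 to 0.0308 for Rpl7l1, and lactate against NaCl -0.355 to 0.00697 for Rps4l. Oxyrase against NaCl gave -0.00125 to 0.0249 for Rpl7 (-0.0243 on library totals) and -0.0353 to 0.0226 for Rps4x. Pyruvate against lactate gave -0.107 to 0.00815 for Rpl22l1, -0.0423 to 0.12 for Rps27l and -0.0218 to 0.0268 for Rps4x.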
